A study of Mus musculus with 6 samples.

Results

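DNA replication and S phase genes encode the proteins that prepare, start and carry out the copying of the genome. The 49 genes described here were matched by symbol and ordered by the step at which their products act, with 9 licensing factors, 12 helicase components, 9 genes of the sliding clamp, its loader and replication protein A (RPA), 11 polymerase, primase, ligase and flap processing genes, 4 genes of nucleotide supply and 4 genes of S phase entry. All 49 were among the 22081 genes of the table, and all 49 were among the 18562 genes that had a mean of at least 5 and were tested. RNA-seq was performed on freshly sorted muscle stem cells (MuSCs), from which new muscle fibres are made after injury, with 3 libraries whose genotype is labelled control, and whose titles say WT, and 3 labelled Taf4asKO. All mice were on a C57BL/6 background, adult and of both sexes. Taf4asKO mice had homozygous floxed Taf4a alleles (Taf4a fl/fl), in which loxP sites flank a pair of exons. They also carried a tamoxifen-inducible Cre recombinase under Pax7 and received tamoxifen, so recombination was limited to cells that express Pax7, the transcription factor that marks MuSCs. The study's methods describe its controls as littermates that had the same floxed alleles with or without this Cre, but the study also used wild type C57BL/6 mice, and the WT of the titles does not say which of these the control libraries were. Some animals also carried a Pax7-zsGreen reporter. Which of these genotypes each library came from, whether the control mice received tamoxifen and how many animals each library holds are not given in the sources used here. The study's methods speak of biological replicates for its quantitative analyses in general, and the p-values measure the spread between these libraries. Each library was made from 10 ng of total RNA out of 90000 sorted cells.

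Replication is prepared when the origin recognition complex (ORC), Cdc6 and Cdt1 load the MCM2-7 ring onto origins, a step called licensing that geminin (Gmnn) blocks. At the start of S phase, Cdc45 and the GINS complex turn the ring into an active helicase, DNA polymerase alpha with primase lays down primers, and polymerases delta and epsilon extend them behind the PCNA clamp that replication factor C (RFC) loads. Transcription of many of these genes is under E2F factors, which cyclin E and Cdk2 activity release, and CCAAT boxes, bound by NF-Y, are common in promoters of cell cycle genes. MuSCs of uninjured muscle are mostly quiescent, and quiescent cells are known to carry little of the replication machinery.

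The promoters of 6 members are shown because they carry the letters of these motifs in different combinations and belong to genes on which the results turn. They span 250 bases before to 50 bases after the RefSeq start (build GRCm38.p6, the assembly called mm10) and are written 5′ to 3′ on the strand of the gene. Capitals mark CCAAT, or ATTGG for the other strand, and the E2F motif, searched as TTTGGCGC, TTTCCCGC, TTTGCCGC and TTTCGCGC on either strand, where matches may overlap.
Mcm2 (chr6:88898731-88899030, minus strand): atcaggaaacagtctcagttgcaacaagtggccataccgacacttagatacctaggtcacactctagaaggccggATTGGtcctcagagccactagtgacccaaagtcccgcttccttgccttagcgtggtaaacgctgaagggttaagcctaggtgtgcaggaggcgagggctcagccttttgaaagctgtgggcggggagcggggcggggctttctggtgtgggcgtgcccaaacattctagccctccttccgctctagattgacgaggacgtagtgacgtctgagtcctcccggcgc
Mcm3 (chr1:20820263-20820562, minus strand): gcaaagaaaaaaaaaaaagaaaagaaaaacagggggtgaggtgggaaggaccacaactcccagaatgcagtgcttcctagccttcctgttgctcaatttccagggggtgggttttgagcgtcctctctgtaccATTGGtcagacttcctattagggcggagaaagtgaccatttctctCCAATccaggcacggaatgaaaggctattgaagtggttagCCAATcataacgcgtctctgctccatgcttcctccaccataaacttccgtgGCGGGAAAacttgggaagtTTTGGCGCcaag
Mcm5 (chr8:75109259-75109558, plus strand): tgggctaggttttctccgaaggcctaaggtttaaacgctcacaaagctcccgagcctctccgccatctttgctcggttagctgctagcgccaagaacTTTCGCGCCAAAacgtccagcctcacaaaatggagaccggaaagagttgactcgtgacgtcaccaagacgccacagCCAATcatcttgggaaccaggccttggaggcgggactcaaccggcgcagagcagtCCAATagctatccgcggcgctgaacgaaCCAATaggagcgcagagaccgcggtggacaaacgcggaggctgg
Mcm6 (chr1:128359656-128359955, minus strand): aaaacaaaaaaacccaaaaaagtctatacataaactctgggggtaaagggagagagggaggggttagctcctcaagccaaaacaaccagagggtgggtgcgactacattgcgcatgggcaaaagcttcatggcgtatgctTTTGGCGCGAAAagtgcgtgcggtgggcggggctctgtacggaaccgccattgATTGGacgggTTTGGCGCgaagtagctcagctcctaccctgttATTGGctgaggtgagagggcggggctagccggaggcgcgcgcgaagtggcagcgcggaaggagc
Pold2 (chr11:5878207-5878506, minus strand): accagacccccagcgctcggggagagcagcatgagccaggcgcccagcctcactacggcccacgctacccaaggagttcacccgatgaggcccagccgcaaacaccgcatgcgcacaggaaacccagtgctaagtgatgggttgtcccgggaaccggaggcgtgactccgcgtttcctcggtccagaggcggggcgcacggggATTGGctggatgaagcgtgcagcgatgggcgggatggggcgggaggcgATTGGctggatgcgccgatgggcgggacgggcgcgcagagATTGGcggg
E2f2 (chr4:136172024-136172323, plus strand): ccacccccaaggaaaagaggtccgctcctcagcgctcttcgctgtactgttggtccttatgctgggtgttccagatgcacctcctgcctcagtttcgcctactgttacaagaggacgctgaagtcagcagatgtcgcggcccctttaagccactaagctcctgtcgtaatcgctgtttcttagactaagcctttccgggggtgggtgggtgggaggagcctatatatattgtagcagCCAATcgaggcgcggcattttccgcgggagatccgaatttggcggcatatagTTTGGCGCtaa

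A promoter was given for 40 of the 49 members. An E2F motif was found for 16 of these 40 genes (40%), against 4.33% of the 11540 genes tested that have a promoter in the table and 2.6% of all 27025 genes that have one. CCAAT was found for 24 of the 40 (60%), against 42.1% of genes tested and 41.1% of all. Both motifs stood in the promoters of 9 members (22.5%), against 2.13% of genes tested and 1.26% of all. Counted per promoter of 300 bases, 32.7% of the 49 member promoters held an E2F motif, against 3.59% of those of genes tested, and 55.1% held CCAAT, against 37.0%. Among the 8 members with a promoter that were lower past the threshold described next, 4 held an E2F motif and 6 held CCAAT. Among the other 32 members with a promoter, the numbers were 12 and 18. E2f1, which was lower and held neither motif, was searched in a window inside the annotated gene, so bases before that gene start were not searched. The windows of Cdc6 and Mcm7, among the other members, also lie inside their genes. Mcm3 and Mcm6, which were lower, and Mcm5, which was not past the threshold, each held both motifs, whereas Mcm2 and Pold2 held CCAAT without an E2F motif. Further promoters of the genes shown differed from the shown ones. That of Pold2 (chr11:5877614-5877913) held neither motif, and that of E2f2 (chr4:136180532-136180831) held CCAAT without an E2F motif. These matches describe letters only.

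The libraries held between 12338676 and 14551732 normalized counts, which were estimated to stem from 10.6 M to 17.6 M counted reads. Taf4, the current symbol of the targeted gene Taf4a, was counted at 613, 534 and 478 (normalized counts, control replicates 1 to 3) and at 631, 565 and 574 (labelled Taf4asKO). The groups overlapped, and Taf4 was not lower (log2 fold change 0.13, limma adjusted p = 0.524, and 0.04 to 0.22 when 1 library was left out). Exons outside the floxed pair are counted too, so this value does not test the deletion itself, and the groups are called by their labels below. For Taf4asKO MuSCs the study reports the deletion by PCR, and Taf4a transcript (RT-qPCR) and protein (western blot) as nearly absent. Whether these libraries were among the samples so tested is not given. Pax7 was at 12082 to 13007 normalized counts in control and 10363 to 11164 in the libraries labelled Taf4asKO, below every control without passing (log2 fold change -0.21, limma adjusted p = 0.161). The summed level of 6 MuSC markers was 31649 to 33744 and 33214 to 36246, but this sum joins genes that moved in opposite directions. Myf5 (-0.85), Itga7 (-0.43) and Cdh15 (-0.52) were lower past the threshold given below, and Vcam1 (0.74) and Sdc4 (0.88) were higher. Control replicate 2 stood apart in proliferation markers, with 2232 normalized counts of Mki67 (the antigen Ki-67) against 1087 and 727 in control replicates 1 and 3. It was the highest of the 3 controls for 35 of the 49 members (71.4%), against 41.3% of all genes tested. Calls of members that changed without this library are given both ways.

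Some genes of the helicase, of polymerases delta and epsilon, of RPA and of the E2F factors were lower in the libraries labelled Taf4asKO, while no licensing or nucleotide supply gene passed the test in either direction. In all, 10 of the 49 members were lower and 0 were higher past the threshold, which was a Benjamini-Hochberg adjusted p under 0.05 over all genes tested (limma) together with a change of at least 1.3-fold on the log2(value + 1) scale. The lower genes were the MCM2-7 subunits Mcm2, Mcm3 and Mcm6, the GINS subunit Gins1, the single-strand binding subunit Rpa2, the delta polymerase subunits Pold1 and Pold2, the epsilon catalytic subunit Pole, and the transcription factors E2f1 and E2f2. Across all genes tested, 6.71% were lower and 5.93% were higher past the same threshold, and the share of lower members was 20.4%. At an unadjusted p under 0.05 stood 22 of the 49 members, beside 28.8% of all genes tested. The median log2 fold change of the members was -0.31, within a range from -2.05 (E2f2) to 0.40 (Orc2), and the median over all genes tested was 0.004. In 22 members every library labelled Taf4asKO lay below every control, in 4 every one lay above, and 23 overlapped, beside 16.4% of all genes tested with all libraries below and 16.6% with all above. These are bulk values, in which fewer cells of a type and less RNA per cell cannot be told apart.

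With the replicate block (the number 1, 2 or 3 of a library entered as a term in the fit), the counts were 14 lower members and 1 higher, beside 8.98% and 9.09% of all genes tested. The members added were Mcm7, Mcm10, Pola2 and Lig1 on the lower side and Pcna on the higher side. Without control replicate 2 the same 10 members were lower and 4 were higher, namely Orc2, Orc4, Pcna and Gins4, beside 7.99% lower and 8.62% higher of the 18635 genes tested then. Leaving out another library lowered the count of lower members. It was 7 and 8 without control replicates 1 and 3, and 5, 5 and 4 without Taf4asKO replicates 1, 2 and 3. The share of all genes tested was not taken for these fits.

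**Figure D1:**
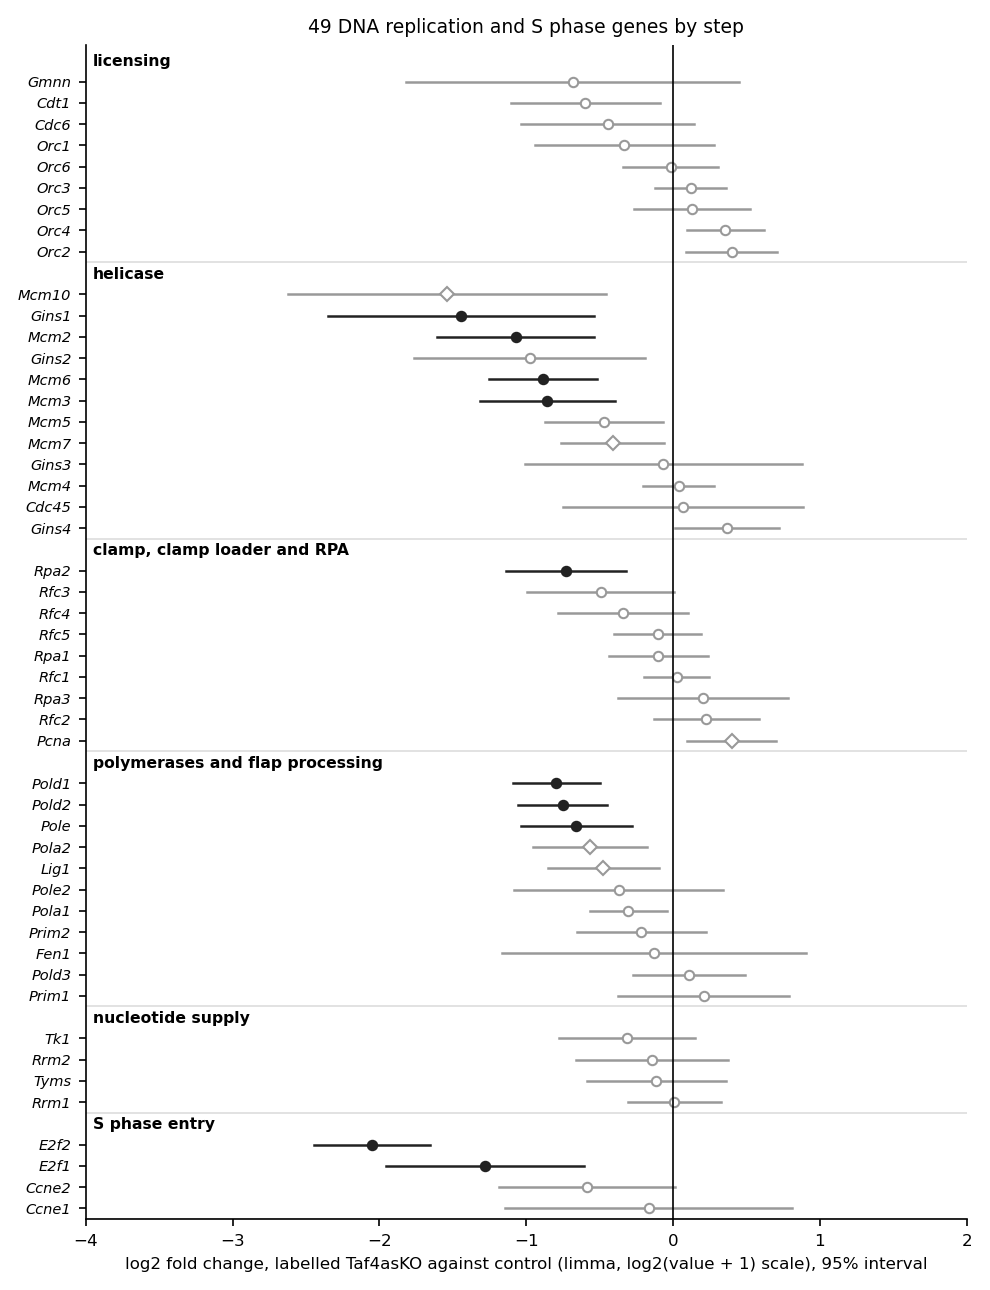
Log2 fold change of each of the 49 members, libraries labelled Taf4asKO against control (x axis, log2(value + 1) scale, limma), with 95% intervals as lines and genes grouped by step. Filled black points mark the 10 lower genes past the threshold, and open diamonds mark genes past it with the replicate block but not without it. The lowest point is E2f2 at -2.05.

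By step, 4 of 12 helicase genes, 3 of 11 polymerase and flap genes, 2 of 4 S phase entry genes and 1 of 9 clamp, loader and RPA genes were lower past the threshold. Of all genes tested, 6.71% were lower and 5.93% higher past it. None of the 9 licensing genes and none of the 4 nucleotide supply genes passed in either direction by limma, where 3 and 0 of them had an unadjusted p under 0.05, beside 28.8% of all genes tested. The median log2 fold change was -0.93 for S phase entry, -0.66 for helicase and -0.37 for polymerases and flap processing. It was -0.13 for nucleotide supply, -0.10 for the clamp, loader and RPA genes and -0.02 for licensing. Scaling to equal Pax7 moved the median of all genes tested to 0.214, and the last 3 medians, at 0.0829, 0.11 and 0.20, then lay above 0 and below that of all genes. Without control replicate 2 the clamp, loader and RPA median was above 0 (0.0606). The licensing median was above 0 for genes with a mean of at least 20 (0.0513), without control replicate 1 (0.0138) and without Taf4asKO replicate 3 (0.0111). The nucleotide supply median was -0.24 without control replicate 1 and -0.0065 without control replicate 2. Differences between steps were not tested.

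Each library was also given a median per step, taken over the genes of the step, of log2(value + 1) minus the control mean. For the helicase genes this median was -0.21, 0.33 and -0.13 in the 3 controls, against -0.56, -0.54 and -0.68 in the group labelled Taf4asKO. For polymerases and flap processing it was -0.04, 0.14 and -0.07 in control and -0.54, -0.31 and -0.44 in the other group. The groups did not overlap in either step, nor in S phase entry, with -0.39 to 0.32 in control and -1.16 to -0.80 in the libraries labelled Taf4asKO. They overlapped for licensing (-0.17 to 0.16 and -0.09 to 0.03), for the clamp, loader and RPA genes (-0.08 to 0.14 and -0.18 to -0.02) and for nucleotide supply (-0.15 to 0.18 and -0.23 to -0.05).

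**Figure D2:**
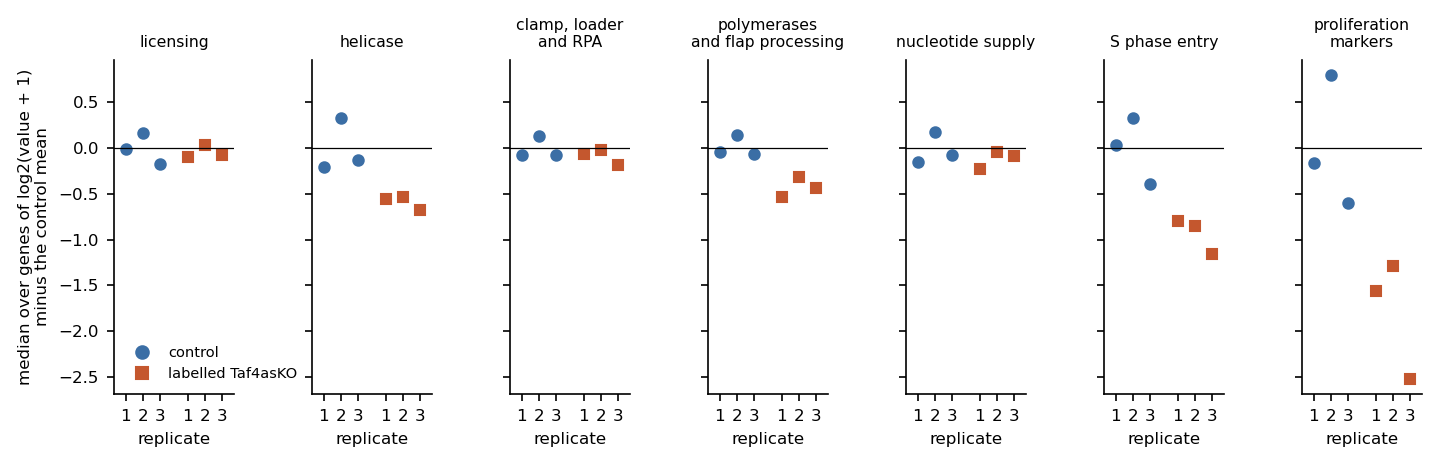
Median over the genes of each step of log2(value + 1) minus the mean of the 3 controls (y axis), for each library (x axis, replicate number within its group), with the 6 proliferation markers in the last panel. Circles are control and squares are libraries labelled Taf4asKO. The groups separate for helicase, polymerases, S phase entry and proliferation markers and overlap in the other panels.

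Licensing factors showed no call. The origin recognition complex subunits lay on either side of 0. Orc2 was counted at 242, 284 and 209 (normalized counts, controls) and at 331, 322 and 310 (labelled Taf4asKO), all of them above the controls (log2 fold change 0.40, limma adjusted p = 0.0899). Orc4 had 408, 455 and 361 against 501, 529 and 531, again with no overlap (0.36, limma adjusted p = 0.0767). Without control replicate 2, Orc2 reached 0.51 and Orc4 0.44, both then past the threshold. A share of 29.8% of the exon length of Orc2 lies under exons of Nif3l1 on the other strand, and since reads over several genes were left out and the strand setting of the counting is not stated, how much of its signal was counted is uncertain. The remaining ORC subunits overlapped between groups, with log2 fold changes from -0.33 (Orc1, 95% interval -0.94 to 0.28) to 0.13 (Orc5, -0.27 to 0.53). Leaving out 1 library gave -0.51 to -0.15 for Orc1 and 0.04 to 0.28 for Orc5.

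The MCM loaders Cdc6 and Cdt1 had lower means without passing. Cdt1 stood at 113, 161 and 95 normalized counts in the controls, against 66, 85 and 88 in the group labelled Taf4asKO. The groups did not overlap, and the log2 fold change was -0.60 with a 95% interval from -1.10 to -0.09 (limma adjusted p = 0.115). It was -0.39 (0.197) without control replicate 2. Cdc6 had 49, 54 and 33 against 33, 33 and 31 (-0.45, limma adjusted p = 0.299), where the lowest control equalled the highest library of the other group. Gmnn, the inhibitor of Cdt1, was at 6, 15 and 7 against 8, 3 and 5, and its log2 fold change was -0.68 with a 95% interval from -1.82 to 0.45, or -0.32 without control replicate 2.

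The 6 subunits of the MCM2-7 ring are present in equal numbers in the assembled ring, and their transcripts had log2 fold changes from -1.07 (Mcm2) to 0.04 (Mcm4). Mcm2 was counted at 206, 334 and 196 (normalized counts, controls) and at 96, 149 and 100 (labelled Taf4asKO). All 3 libraries lay below every control, and Mcm2 fell by 52.4% (log2 fold change -1.07, SE 0.24, limma adjusted p = 0.0175). Mcm3 had 203, 347 and 228 against 132, 161 and 126 (-0.86, SE 0.21, limma adjusted p = 0.0238). Mcm6 had 361, 530 and 378 against 205, 250 and 222 (-0.89, SE 0.16, limma adjusted p = 0.00744). Control replicate 2 was the highest library for each of the 3 genes, and the other controls alone still lay above every library labelled Taf4asKO. Without it the log2 fold changes were -0.83 for Mcm2, -0.63 for Mcm3 and -0.71 for Mcm6, all still past the threshold (limma adjusted p = 0.0291, 0.028 and 0.00851). Mcm6 passed without any 1 library. Mcm2 was lost without replicate 1 or 3 labelled Taf4asKO (0.0741 and 0.0777), and Mcm3 without replicate 1, 2 or 3 of that label (0.0852, 0.0537 and 0.101) and with equal Pax7 (-0.64, 0.0524).

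Mcm4 overlapped between the groups, with 443, 468 and 426 normalized counts in the controls against 490, 448 and 435 in the group labelled Taf4asKO. Its log2 fold change was 0.04 with a 95% interval from -0.20 to 0.28, and its sign turned with upper-quartile scaling (-0.0011). Mcm5 had 121, 172 and 128 against 95, 103 and 102. It did not overlap between groups but did not pass (-0.47, limma adjusted p = 0.118). Mcm7 had 373, 536 and 431 against 295, 384 and 323, where the libraries overlapped. It passed only with the replicate block (-0.41, limma adjusted p = 0.117, and 0.0254 with the block), and without control replicate 2 its log2 fold change was -0.27.

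Within a library, the ratio to Mcm4 leaves library scaling out. The Mcm2 to Mcm4 ratio was 0.465, 0.714 and 0.460 in the controls, against 0.196, 0.333 and 0.230 in the group labelled Taf4asKO. That of Mcm6 was 0.815, 1.13 and 0.887 against 0.418, 0.558 and 0.510, and that of Mcm3 was 0.458, 0.742 and 0.535 against 0.269, 0.359 and 0.290. The ratios of Mcm2, Mcm3, Mcm5 and Mcm6 did not overlap between groups. The Mcm7 ratio, at 0.842, 1.145 and 1.012 against 0.602, 0.8571 and 0.7425, overlapped between groups and was lower in each of the 3 pairs of same-numbered libraries. Mcm4 was taken as the denominator after the values had been seen, so the ratios are a description. None of the 5 passed a two-sided exact permutation test, which cannot go below 0.1 with 3 against 3 libraries.

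Per kilobase of exon length, the mean control level of the ring was highest for Mcm4, at 124 normalized counts per kilobase, followed by Mcm7, then Mcm6 at 90.7 and Mcm3 at 69.1, with Mcm2 at 35.3 and Mcm5 at 35.1. In the libraries labelled Taf4asKO these levels per kilobase were 128 for Mcm4, 75.5 for Mcm7, 48.4 for Mcm6, 37.2 for Mcm3, 25.04 for Mcm5 and 16.5 for Mcm2. The levels of Mcm2 and Mcm5 were within the spread of each other in control.

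**Figure D3:**
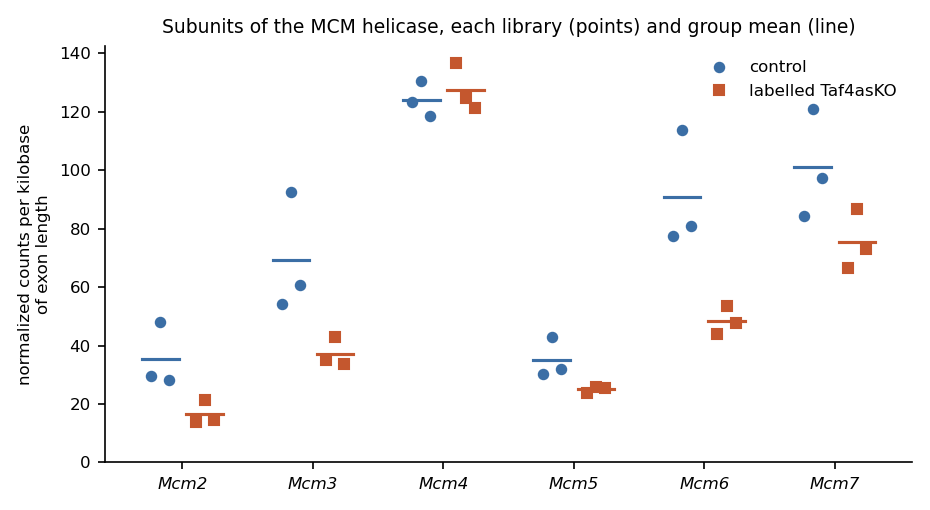
Normalized counts per kilobase of exon length (y axis, from 0) of the 6 MCM2-7 subunits in each library, with circles for control, squares for libraries labelled Taf4asKO and lines for group means. Mcm4 sits at about the same level in both groups (124 and 128), while Mcm6 goes from 90.7 to 48.4.

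The factors that join or activate the ring were mostly sparse. Gins1 stood at 28, 12 and 20 normalized counts in the controls, against 6, 7 and 6 in the group labelled Taf4asKO, with no overlap (log2 fold change -1.45, SE 0.41, limma adjusted p = 0.0431). The call was lost in 9 of the 18 alternatives in which Gins1 was tested, and it passed without control replicate 2 (limma adjusted p = 0.0181) but was lost without each other single library (0.102 to 0.142) and with equal Pax7 (0.0521), total-count scaling (0.0574) and limma-voom (0.0585). Gins2 had 23, 34 and 39 against 22, 15 and 11 (-0.98, 95% interval -1.76 to -0.19, not past the threshold), although 67.3% of its exon length lies under exons of Gse1 on the other strand. Gins3 did not separate (-0.07, 95% interval -1.01 to 0.88). Gins4 went the other way, with 115, 146 and 117 against 160, 154 and 173 (0.37, limma adjusted p = 0.157), and passed as higher only in the alternatives without control replicate 2 (0.48) and with equal Pax7. Mcm10, which helps activate the helicase, had 13, 41 and 13 against 7, 6 and 5. All libraries labelled Taf4asKO lay below the controls, but control replicate 2 was far above the other controls, and the call was made only with the block (-1.54, limma adjusted p = 0.0645, and 0.0369 with the block). Without control replicate 2 its log2 fold change was -1.01 (limma adjusted p = 0.116). Cdc45 overlapped, with 22, 47 and 19 against 23, 31 and 32 and a 95% interval from -0.75 to 0.88.

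Among the clamp, loader and RPA genes, Rpa2 was the only one past the threshold without the block. It was counted at 97, 117 and 106 (normalized counts, controls) and at 57, 69 and 66 (labelled Taf4asKO). The groups did not overlap, and Rpa2 fell by 39.6% (log2 fold change -0.73, SE 0.18, limma adjusted p = 0.0291). The call was lost without control replicate 3 (limma adjusted p = 0.0634) and without each library labelled Taf4asKO (0.0838 to 0.1), and with equal Pax7 (-0.52, 0.0884). Its partners Rpa1 (-0.10, 95% interval -0.44 to 0.24) and Rpa3 (0.20, -0.38 to 0.78) overlapped between groups. Leaving out 1 library gave 0.0115 to 0.36 for Rpa3. Pcna, the sliding clamp, had 297, 362 and 283 against 457, 411 and 372, each library labelled Taf4asKO lying above every control. It missed the threshold without the block (0.40, limma adjusted p = 0.0854) and passed with it (0.045), and without control replicate 2 its log2 fold change was 0.51 and past the threshold. Pcna had the highest level per kilobase of all members in either group, at 131 normalized counts per kilobase in control and 172 in the libraries labelled Taf4asKO. The 5 RFC subunits did not pass, with log2 fold changes from -0.49 (Rfc3) to 0.23 (Rfc2). Rfc1, the large subunit, was at 695, 770 and 717 against 702, 741 and 775, a difference of 0.02 with a 95% interval from -0.20 to 0.25.

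The catalytic subunits of both polymerases that extend the primers were lower. Pold1, the catalytic subunit of polymerase delta (chr7:44532746-44548847, minus strand), stood at 279, 306 and 252 normalized counts in the controls, against 157, 164 and 159 in the group labelled Taf4asKO. It fell by 42.3% with no overlap (log2 fold change -0.79, SE 0.13, limma adjusted p = 0.00466). The accessory subunit Pold2 had 203, 214 and 212 against 126, 125 and 121 (-0.75, SE 0.14, limma adjusted p = 0.00646). Control replicate 2 did not stand apart for Pold2, where the controls had an SD of 5.86 around a mean of 210 (n = 3). Pold3, which joins the same complex, had 376, 324 and 262 against 393, 364 and 279 and overlapped (0.11, 95% interval -0.28 to 0.49).

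Pole, the catalytic subunit of polymerase epsilon (chr5:110286306-110337474, plus strand), was counted at 127, 142 and 118 (normalized counts, controls) and at 74, 88 and 82 (labelled Taf4asKO). It fell by 36.6%, without overlap (log2 fold change -0.66, SE 0.17, limma adjusted p = 0.0319). The call was lost without control replicate 1 (limma adjusted p = 0.0678) and without each library labelled Taf4asKO (0.087 to 0.115), and with equal Pax7 (-0.45, 0.121), whereas Pold1 and Pold2 passed without any 1 library. Its partner Pole2 was at 22, 19 and 21 against 18, 12 and 18, where the groups did not overlap either but the interval reached from -1.08 to 0.34. Of the primer-laying enzymes, the polymerase alpha subunits Pola1 (-0.30, limma adjusted p = 0.119) and Pola2 (-0.56, 0.0609) lay below every control without passing, and Pola2 passed with the block (limma adjusted p = 0.0444) and with upper-quartile scaling (0.0499). The primase subunits Prim1 (0.21, 95% interval -0.37 to 0.79) and Prim2 (-0.21, -0.66 to 0.23) overlapped. Leaving out 1 library gave 0.0098 to 0.35 for Prim1 and -0.35 to -0.10 for Prim2. Lig1, the ligase that seals Okazaki fragments, had 226, 300 and 214 against 157, 203 and 169. It did not overlap and passed only with the block (-0.47, limma adjusted p = 0.0977, and 0.0314 with the block). Fen1, the flap nuclease, was listed at 5 to 11 normalized counts in every library, and 78.8% of its exon length lies under exons of Gm10143 on the other strand.

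**Figure D4:**
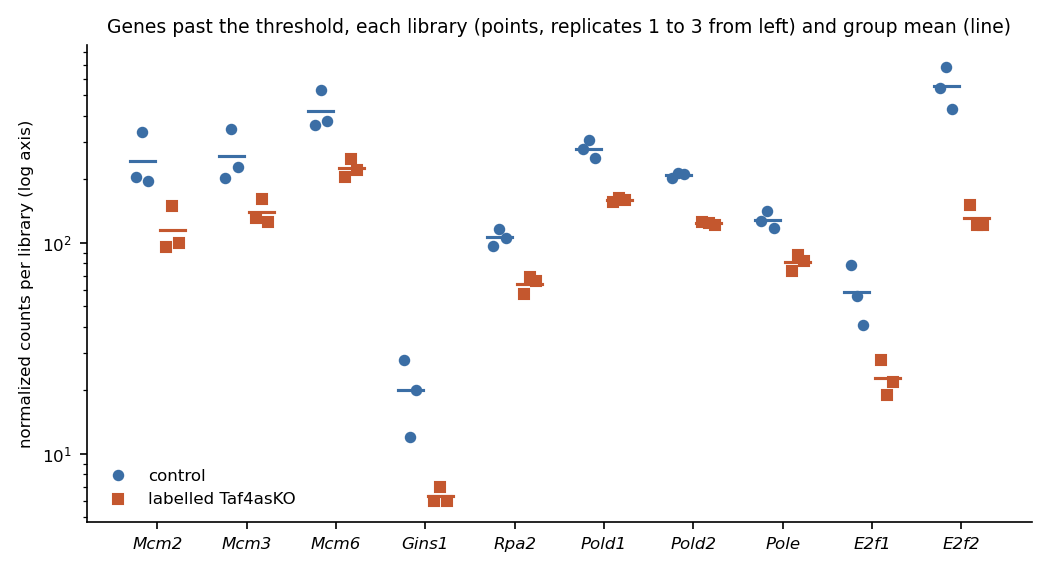
Normalized counts (y axis, log scale) of the 10 members past the threshold in each library, with points for replicates 1 to 3, circles for control, squares for libraries labelled Taf4asKO and lines for group means. For each gene the 3 squares lie below the 3 circles. Control replicate 2 is the highest circle for every gene shown except Gins1 and E2f1.

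Nucleotide supply did not move past the threshold. Rrm1 and Rrm2, the subunits of ribonucleotide reductase, had log2 fold changes of 0.01 (95% interval -0.31 to 0.32) and -0.14 (-0.66 to 0.38). Thymidylate synthase Tyms stood at 50, 61 and 64 normalized counts in the controls, against 49, 54 and 58 in the group labelled Taf4asKO, which overlapped. Thymidine kinase Tk1 had 65, 60 and 55 against 51, 45 and 48. Its groups did not overlap, but the change missed the threshold (-0.31, limma adjusted p = 0.351).

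S phase entry held the largest decrease among the members. E2f2, an activating E2F factor, was counted at 545, 681 and 431 (normalized counts, controls) and at 151, 121 and 121 (labelled Taf4asKO). The highest library labelled Taf4asKO was far below the lowest control, and E2f2 fell by 75.9% (log2 fold change -2.05, SE 0.18, limma adjusted p = 0.00016). It passed in each of the 19 alternatives. Its mean level per kilobase went from 113 to 26.8 normalized counts per kilobase. E2f1 had 79, 56 and 41 against 28, 19 and 22, without overlap (log2 fold change -1.28, SE 0.30, limma adjusted p = 0.0224). Control replicate 1, not control replicate 2, was the highest library for E2f1. Without control replicate 1 the call was lost (-1.04, limma adjusted p = 0.0705), as it was without replicate 2 or 3 labelled Taf4asKO (0.0953 and 0.0848). The E-type cyclins, the Cdk2 partners of the G1 to S transition, did not pass. Ccne2 had 55, 77 and 55 against 40, 54 and 31 (-0.59, limma adjusted p = 0.183), and Ccne1 overlapped (-0.17, 95% interval -1.15 to 0.81).

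A wider list of 39 genes that act beside the members gave 12 lower and 2 higher past the threshold, beside 6.71% and 5.93% of all genes tested, with a median log2 fold change of -0.44. Timeless and Clspn, which hold the fork together and pass the checkpoint signal, fell. Timeless stood at 293, 224 and 244 normalized counts in the controls, against 87, 89 and 79 in the group labelled Taf4asKO (-1.56, SE 0.16, limma adjusted p = 0.000443). Clspn had 138, 150 and 96 against 34, 44 and 28 (-1.83, SE 0.25, limma adjusted p = 0.00177). Neither overlapped, and Tipin, the binding partner of Timeless, had 154, 218 and 156 against 187, 198 and 188 (0.14, 95% interval -0.23 to 0.50). Of the origin firing factors, Ticrr (-1.53) and Topbp1 (-0.44) fell, the former not past the threshold without control replicate 2 (limma adjusted p = 0.0741), and Cdc7, the kinase that fires licensed origins, stayed within 95% bounds of -0.42 and 0.56.

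Of 6 further S phase entry genes, 5 fell past the threshold, beside 6.71% of all genes tested. They were E2f3 (-0.93), E2f8 (-2.13), Cdk2 (-0.92), the phosphatase Cdc25a (-0.69) and Dtl (-1.79), which marks Cdt1 for destruction in S phase. Without control replicate 2, E2f8 no longer passed (-1.70, limma adjusted p = 0.051). Cdk2 was counted at 421, 446 and 358 (normalized counts, controls) and at 259, 227 and 169 (labelled Taf4asKO). At the fork, the chromatin factors Chaf1a (-0.79) and Uhrf1 (-1.37) and the RNase H2 subunit Rnaseh2b (-0.70) also fell, although 52.5% of the exon length of Chaf1a lies under exons of Ubxn6 on the other strand. The Rnaseh2b call (limma adjusted p = 0.0491) was lost in 12 of 19 alternatives, among them total-count scaling, limma-voom, no filter and 5 of the 6 fits without 1 library, in which its log2 fold change ranged from -0.80 to -0.58. Several other calls were lost without single libraries. These were Cdc25a without each library labelled Taf4asKO (limma adjusted p = 0.0543 to 0.0981), Chaf1a without replicate 1 or 3 of that label (0.052 and 0.0569), E2f8 without its replicate 1 or 2 (0.0813 and 0.0854) and Uhrf1 without its replicate 2 or 3 (0.0604 and 0.0798). Ticrr (0.0708 to 0.128) and Topbp1 (0.059 to 0.157) were lost without each library labelled Taf4asKO, and also without control replicate 1. Ticrr was lost with limma-voom too (0.0552). With equal Pax7 the calls of Topbp1 (-0.23, limma adjusted p = 0.284), Rnaseh2b (-0.49, 0.144) and Cdc25a (-0.48, 0.0801) were lost. Timeless, Clspn and Dtl were lost in no alternative, and E2f3 and Cdk2 only with a fold limit of 2.

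The genes of this list that rose, Rrm2b and Samhd1, act in nucleotide supply. Rrm2b, the small ribonucleotide reductase subunit that is used outside S phase and induced by p53, stood at 141, 181 and 167 normalized counts in the controls, against 315, 380 and 373 in the group labelled Taf4asKO. All 3 lay above every control, at 2.18-fold (log2 fold change 1.12, SE 0.15, limma adjusted p = 0.00134). Samhd1, which breaks down deoxynucleotides, had 287, 340 and 358 against 488, 503 and 500 (0.60, limma adjusted p = 0.0103). Neither gene overlapped between groups. The Samhd1 call was lost without replicate 2 or 3 labelled Taf4asKO (limma adjusted p = 0.0606 and 0.0569), and Rrm2b passed in each alternative. With the block, Atad5 was added on the lower side and Donson on the higher side. Atad5 also passed with 3 other scalings and with a mean of at least 20, and Donson with equal Pax7 and without control replicate 1.

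**Figure D5:**
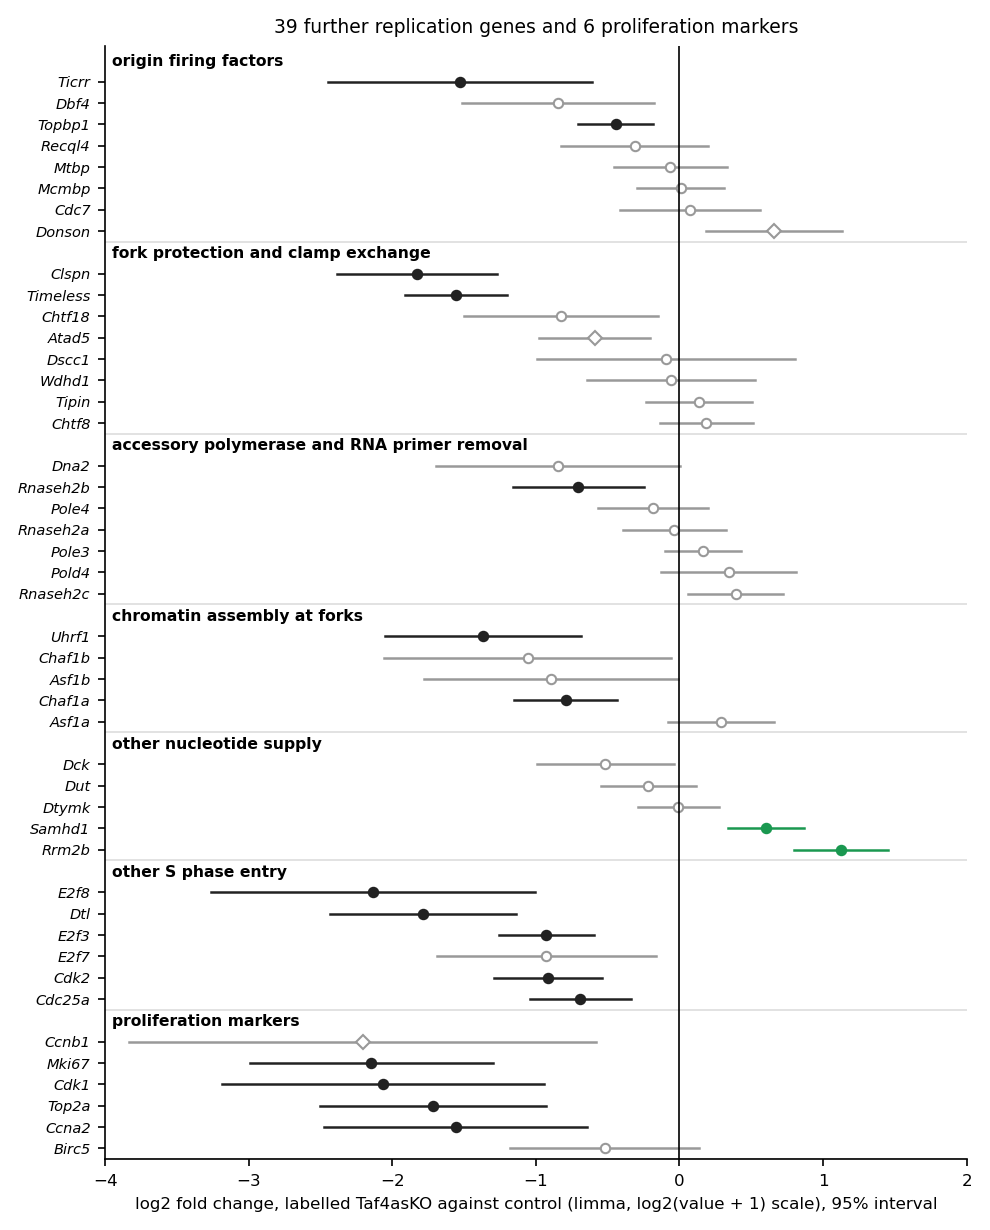
Log2 fold change of the 39 further replication genes and 6 proliferation markers, libraries labelled Taf4asKO against control (x axis, log2(value + 1) scale, limma), with 95% intervals as lines. Filled black points passed as lower and filled green points as higher, and open diamonds passed with the replicate block but not without it. The green points are Samhd1 and Rrm2b.

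Of the 6 markers of cycling cells, 4 were lower past the threshold, beside 6.71% of all genes tested. Mki67 was counted at 1087, 2232 and 727 (normalized counts, controls) and at 250, 427 and 189 (labelled Taf4asKO), and it was lower (log2 fold change -2.15, SE 0.38, limma adjusted p = 0.00602). The groups did not overlap, and the highest control was control replicate 2. The other lower markers were Top2a (-1.72), Cdk1 (-2.07) and Ccna2 (-1.56), and the summed level of all 6 was 1104 to 3231 in control and 315 to 691 in the other group. Without control replicate 2, Mki67 still passed (-1.70, limma adjusted p = 0.0107), whereas Cdk1 and Ccna2 no longer did (0.0619 and 0.0759). Without replicate 1 or 3 labelled Taf4asKO, Top2a (limma adjusted p = 0.0511 and 0.0562), Cdk1 (0.0534 and 0.057) and Ccna2 (0.0948 and 0.117) were lost, and Mki67 passed without any 1 library. Ccnb1 passed only with the block, and Birc5 did not (-0.52). The part of cycling cells in the change of the members was not tested.

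Markers of other cell types also differed between the groups. All 5 Schwann cell markers were higher in the libraries labelled Taf4asKO, with a summed level of 1273 to 3112 normalized counts in control and 3978 to 4902 in the other group. Of 5 mural cell markers, 2 were higher (5227 to 9474 and 11160 to 14371), and all 5 were with the block and had an unadjusted p under 0.05. None of the 5 endothelial markers passed (878 to 1263 and 1389 to 1680), where limma gave 4 of them an unadjusted p under 0.05 and the block gave 2 calls. Of 5 blood cell markers, Ptprc and Cd3e had no row of that symbol in the values used here and were not analysed. None of the other 3 passed (422 to 538 and 666 to 924), with 1 at an unadjusted p under 0.05 by limma and 1 passing with the block. Of 6 fibro-adipogenic markers, Col3a1 was lower, and with it the sum (47535 to 51494 and 16339 to 22384), while 4 of the other 5 were higher with the block. The 5 muscle fibre markers did not pass, with 0 at an unadjusted p under 0.05 (1170 to 3618 and 2045 to 2602). Among the 6 MuSC markers 3 were lower (Myf5, Itga7 and Cdh15) and 2 higher (Vcam1 and Sdc4) past the threshold. Per the study's methods, cells with CD31, CD45 or SCA1 on their surface, which include endothelial, blood and many fibro-adipogenic cells, were depleted before MuSCs were sorted by integrin alpha 7 or zsGreen. On reanalysis the study found its sorted cells mostly but not fully pure, and it gives no purity for these libraries. No marker analysed was at 0 in every library, and the part of other cell types in the change of the members was not tested.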

How the data were processed

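Total RNA of 6 samples of sorted MuSCs (3 control, 3 labelled Taf4asKO, grouped by the genotype label) was sequenced with a stranded total RNA kit. Per the study's methods and the submitters' processing notes, the authors trimmed reads (Trimmomatic 0.39), aligned them to mm10 (STAR 2.6.0c), removed multi-mapping reads and counted exon reads that touched a single gene (featureCounts 1.6.0). The strand setting is not given in the sources used here. The deposited values are a score, counts divided by a size factor per library (DESeq2 1.14.1) and rounded to whole numbers by the authors. They are not raw counts, so no count model was run. The spacing of the whole numbers in each library was used to estimate its size factor and its number of counted reads. Limma 3.58.1 (R 4.3.3; lmFit, eBayes with trend, two-sided) was fitted to log2(value + 1) of all genes with a mean of at least 5, without covariates. Genes passed where the p, adjusted over all genes tested by Benjamini and Hochberg's method, was under 0.05 and the change reached 1.3-fold. Fold changes on this scale understate the change of low genes.

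The members, the gene lists and the markers were chosen with earlier results of these data known. All 49 members and counts of the other lists are described, with values for the genes that passed or that a paragraph turns on. A further gene was left out of the wider list and its counts and is not reported here. Replicate numbers come from the sample titles. Deviations from the group means of same-numbered libraries correlated over genes (r = 0.235, 0.126 and 0.150). For libraries with different numbers r ranged from -0.149 to 0.014, and deviations within a group sum to 0, so these values depend on each other. No source used here states a pairing. The numbers were taken to pair the libraries because of these correlations. A fit with the number as a block was made beside the main one. On simulated data drawn from these libraries, for 18576 genes with 200 changed, the test recovered 20.4% of 1.5-fold, 69.4% of 2-fold and 95.9% of 3-fold changes, and 5 of 140 calls were false. Exon lengths and overlapping genes came from GENCODE M21, and promoters from RefSeq. Alternatives covered scaling, filter, pseudocount, limma-voom, thresholds, the block and leaving out each library. After the data had been seen, scaling to equal Pax7 was added, as were the medians per step.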

Additional observations from a re-analysis of the deposited data

How the results depend on the processing

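The 10 lower members kept their direction in every alternative run, and E2f2 also stayed past the threshold in all 19. Mcm6, Pold1 and Pold2 were lost only with a fold limit of 2, whereas Gins1, Rpa2, Pole, Mcm3, E2f1 and Mcm2 were lost in 9, 7, 7, 6, 4 and 3 alternatives. The count of lower members was 4 with a fold limit of 2, 4 at an adjusted p under 0.01 and 6 with equal Pax7, ranged from 4 to 10 when 1 library was left out (4 without Taf4asKO replicate 3, 5 without Taf4asKO replicate 1 or 2), and was 9 to 11 with other scalings, filters, pseudocounts and limma-voom. With the replicate block it was 14 and the count of higher members 1; the block changed no call of the 49 members beside those named in the report. The count of higher members was 4 with equal Pax7 and 0 to 4 when 1 library was left out (4 without control replicate 2). Fewer samples enter the fits that leave out a library. For the other changes the cause was not tested.

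Scaling to equal Pax7, added after the data had been seen, shifted the median of all genes tested to 0.214. It gave medians of -0.11 for the members, 0.20 for licensing, -0.45 for helicase, 0.11 for clamp, loader and RPA, -0.17 for polymerases and flap processing and 0.0829 for nucleotide supply. A mean of at least 20 gave -0.44 for helicase, and leaving out 1 library gave -0.12 to 0.0606 for clamp, loader and RPA (0.0606 without control replicate 2).

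Among 1360 values of single genes, 1205 kept direction and call, 99 lost a call, 23 gained one and 33 changed sign, all of the last without a call. With equal Pax7 these were Orc6 (0.20), Gins3 (0.14), Rfc5 (0.11), Rpa1 (0.11), Fen1 (0.0569), Rrm2 (0.0698), Tyms (0.10) and Ccne1 (0.0418), with upper-quartile scaling Mcm4 (-0.0011), Rfc1 (-0.0149) and Rrm1 (-0.0302), and with totals without ribosomal, mitochondrial and top genes Rrm1 (-0.0104). Leaving out 1 library gave -0.0529 to 0.0138 for Orc6, -0.0126 to 0.0732 for Mcm4, -0.18 to 0.45 for Cdc45, -0.46 to 0.35 for Gins3, -0.0108 to 0.0655 for Rfc1, -0.24 to 0.0606 for Rpa1, -0.0303 to 0.25 for Pold3, -0.43 to 0.0741 for Fen1, -0.0855 to 0.15 for Rrm1, -0.34 to 0.0651 for Rrm2 and -0.54 to 0.25 for Ccne1. Intervals wider than a log2 unit were found among members with few counts, such as Fen1 and Gmnn, and among others, such as Mcm2 and E2f1, and the part of depth in this was not tested.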
